A study of Homo sapiens and Mus musculus with 7 samples.

Results

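The alpha-like globin genes supply one of the 2 chain types of each haemoglobin tetramer. HBA1, HBA2 and HBZ were taken by gene symbol from an RNA-seq table of HEL cells, a human erythroleukaemia line that makes embryonic and fetal globins, and are 3 of the 14903 genes in it. HBZ encodes the embryonic zeta chain, which precedes alpha chains in development. HBA1 and HBA2 are a duplicated, near-identical pair that encode the alpha chain of fetal and adult haemoglobin. In erythroid cells the switch from zeta to alpha happens within one gene cluster, under distal enhancers that lie in introns of the neighbouring gene NPRL3. Each alpha-like chain pairs with a beta-like chain, which in HEL cells is mostly gamma. KAP1, encoded by TRIM28, is a corepressor that KRAB zinc finger proteins bring to chromatin.

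The 4 HEL groups were cells with KAP1 knocked down (KD) and given hemin, KD cells not activated, control cells given hemin and control cells not activated. Hemin, the oxidised form of haem, was given at 50 µM for 5 days. The control libraries are labelled KAP1 WT, while their columns in the table are headed Ctrl, and they were matched as the one other genotype in this line. From 250 ng of total RNA per group came 1 library, so no difference has a replicate check. The way KAP1 was knocked down was not stated. The series, whose title concerns KAP1 and mitophagy in red cell formation, also has 3 mouse ChIP libraries, not used here.

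Depth ranged from 23523104 to 41213984 reads on 1 chosen transcript per gene. Levels are given in scaled TPM, which is reads per transcript length scaled for depth and composition so that a library sums to about 1000000. A log2 ratio is that of scaled TPM plus 0.5 and understates the change of low genes. Its 95% interval comes from the reads without that pseudocount and covers counting error only, not the spread between libraries. The reads carry no molecular identifiers, so copies of the same molecule count as separate reads and the interval may be too narrow. In bulk RNA, fewer cells of a type and less RNA per cell cannot be told apart. TRIM28 stood at 190 scaled TPM in the KD library and 400 in the control library with hemin, and at 317 in the KD library and 421 in the control library without hemin, log2 ratios of -1.07 and -0.41. Without hemin, 2630 of 10868 genes had a ratio as low or lower. The TRIM28 row holds whole numbers, unlike nearly all others, and how they were made is not known. Its reads are therefore not known, and its levels and ratios are uncertain.

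HBA1 and HBA2 were more abundant in both KD libraries than in the matching controls, and more abundant with hemin than without in both genotypes. Their summed level was 15999 scaled TPM in KD cells with hemin, 4888 in KD cells without hemin, 7032 in control cells with hemin and 1972 in control cells without hemin. HBZ behaved differently. With 0.5 added to each level, it was 10.0-fold lower in KD cells than in control cells under hemin. In KD cells it was 1.71-fold lower with hemin than without, from few reads, and in control cells 4.75-fold higher.

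HBA1 (NM_000558, ENSG00000206172) had 8532 scaled TPM in KD cells with hemin, 2662 in KD cells without hemin, 3767 in control cells with hemin and 1069 in control cells without hemin. It was thus highest in the KD library with hemin and lowest in the untreated control, with the hemin-treated control above the untreated KD library. These levels rest on 103248, 18010, 39522 and 9823 reads in the same order. Among the 14903 genes, HBA1 ranked 3 in KD cells with hemin, 38 in KD cells without hemin, 31 in control cells with hemin and 125 in control cells without hemin.

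HBA2 (NM_000517, ENSG00000188536) had 7466 scaled TPM in KD cells with hemin, 2226 in KD cells without hemin, 3264 in control cells with hemin and 903 in control cells without hemin. The 4 libraries stood in the same order as for HBA1, from 97562, 16259, 36979 and 8955 reads. HBA2 ranked 4, 51, 44 and 142 among all genes in the same order of libraries.

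**Figure D1:**
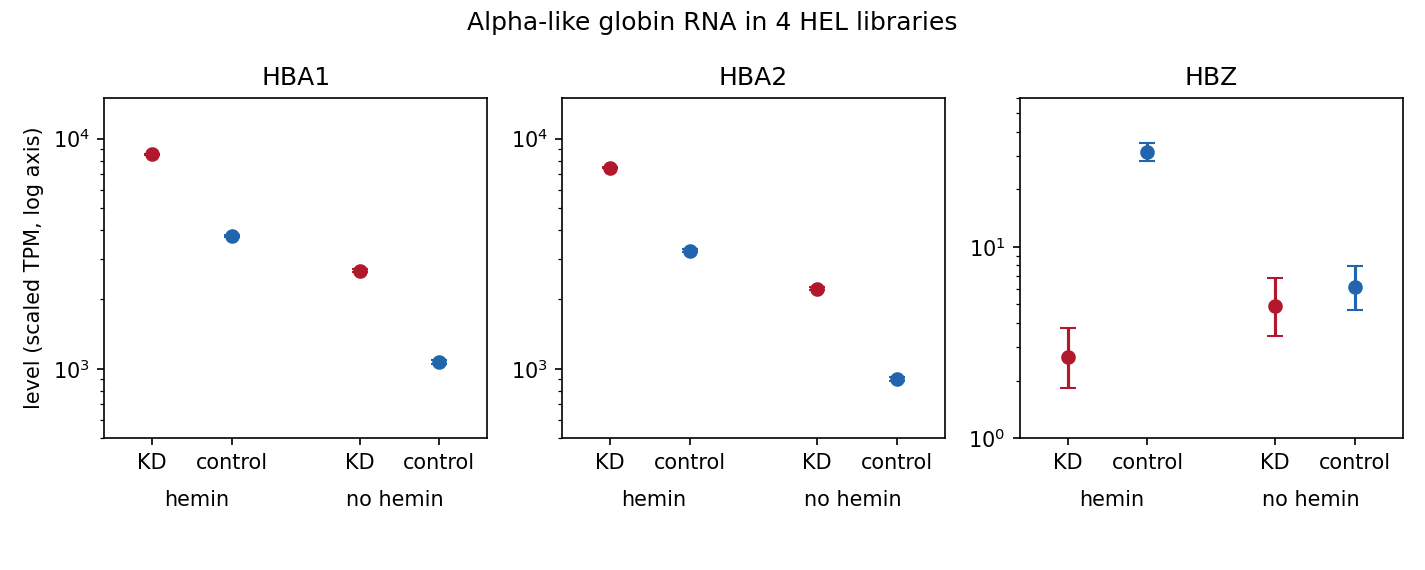
Levels of HBA1, HBA2 and HBZ in scaled TPM on log axes, with 1 point per library, KD in red and control in blue, and bars for the 95% counting interval. HBA1 and HBA2 are highest in the KD library with hemin, at 8532 and 7466 scaled TPM, while HBZ is lowest there, at 2.67 scaled TPM.

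HBA1 and HBA2 differ so little in sequence that short reads can fit either, and the placing of reads that fit both was not stated. Their separate levels are therefore uncertain, and their sum is the safer measure. HBA2 stood at 0.875 times HBA1 per length in KD cells with hemin, 0.836 in KD cells without hemin, 0.866 in control cells with hemin and 0.844 in control cells without hemin. In reads, without division by length, the ratios were 0.945 (0.937 to 0.953), 0.903 (0.884 to 0.922), 0.936 (0.922 to 0.949) and 0.912 (0.886 to 0.938) in the same order. HBA2 was below HBA1 in every library, and a little closer to it in the hemin libraries of both genotypes, although the intervals of the 2 control libraries overlap.

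The first question was how KAP1 knockdown bore on the alpha genes. The KD over control log2 ratio of the sum was 1.19 with hemin and 1.31 without hemin, or 2.28-fold and 2.48-fold. For HBA1 the log2 ratios were 1.18 (1.16 to 1.20) with hemin and 1.32 (1.28 to 1.35) without hemin. HBA2 gave 1.19 (1.18 to 1.21) with hemin and 1.30 (1.26 to 1.34) without hemin. Both genes therefore differed by more than 2-fold in both comparisons. Of all genes at or above 5 scaled TPM in the higher library, 6.00% were at least 2-fold higher in KD cells with hemin and 6.69% without hemin. HBA1 lay inside this group without leading it, since 422 of 10893 genes had a ratio at least as high with hemin and 318 of 10868 did without hemin.

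The second question was how hemin bore on them. The hemin over no hemin log2 ratio of the sum was 1.71 in KD cells and 1.83 in control cells, or 3.27-fold and 3.57-fold. HBA1 gave 1.68 (1.66 to 1.70) in KD cells and 1.82 (1.79 to 1.85) in control cells. For HBA2 the values were 1.75 (1.72 to 1.77) in KD cells and 1.85 (1.82 to 1.89) in control cells. At least 2-fold higher levels with hemin were found for 2.27% of genes in KD cells and 2.59% in control cells. Here the alpha genes stood further out, with 31 of 10816 genes having a ratio at least as high as that of HBA1 in KD cells and 36 of 10789 in control cells. The difference of the 2 hemin log2 ratios, KD minus control, was -0.14 for HBA1 and -0.11 for HBA2, so in these 4 libraries the hemin ratio was of similar size in both genotypes. With the deposited values as they stand, which still carry depth, the hemin log2 ratio of the sum was 2.67 in KD cells.

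An additive model with a knockdown and a hemin term was fitted with limma over the 4 libraries and 11149 genes. In the limma fit with Benjamini-Hochberg adjustment, HBA1 rose with knockdown by 1.25 (SE 0.20, adjusted p = 1.98e-08) and HBA2 by 1.25 (SE 0.20, adjusted p = 2.52e-08). With hemin, limma gave HBA1 1.75 (adjusted p = 8.16e-16) and HBA2 1.80 (adjusted p = 1.55e-16). Of all genes, 12.1% rose and 10.1% fell with knockdown, while 3.01% rose and 2.96% fell with hemin. The fit has 1 residual degree of freedom. With 1 library per group, that residual is the departure from additive terms and not a spread between replicate libraries. The p-values of the fit therefore do not measure reproducibility. Its spread is taken from all genes pooled, ignoring each gene's own. Without that pooling no gene passed, and 1127 and 806 genes had an unadjusted p under 0.05 for knockdown and hemin.

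HBZ (NM_005332, ENSG00000130656) had 2.67 scaled TPM (1.84 to 3.75) in KD cells with hemin, 4.92 (3.40 to 6.87) in KD cells without hemin, 31.2 (28.0 to 34.8) in control cells with hemin and 6.17 (4.69 to 7.98) in control cells without hemin. One library stood apart, the hemin-treated control, with 335 reads. The others had 33 reads in KD cells with hemin, 34 in KD cells without hemin and 58 in control cells without hemin. HBZ ranked 11539 among all genes in the hemin-treated KD library and 5155 in the hemin-treated control, far below both alpha genes in each. Reads of HBZ can also fit its pseudogene HBZP1, which is not analysed here.

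With hemin, the KD over control log2 ratio of HBZ was -3.32 (-4.11 to -3.03). In all, 12 of 10893 genes, HBZ included, had a ratio as low or lower, and 4.10% of genes were at least 2-fold lower in that comparison. Without hemin the ratio was -0.30 (-0.98 to 0.31), an interval that includes equal levels, so no difference was detectable at this depth. The ratio of hemin to no hemin was -0.77 (-1.62 to -0.15) in KD cells, where both levels lie under the floor of 5 scaled TPM. In control cells it was 2.25 (1.93 to 2.77), with 19 of 10789 genes as high or higher. The difference of these log2 ratios, KD minus control, was -3.02 (-4.02 to -2.42), and 2 of 11149 genes, HBZ included, had a difference as low or lower. It has no test, because each group is 1 library, and the larger part of it comes from the ratio in control cells.

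The size of the HBZ ratios depended on the pseudocount, since with 5 in place of 0.5 the KD over control log2 ratio with hemin was -2.24. The limma knockdown term for HBZ was -1.81 (SE 0.31, adjusted p = 3.52e-07 by Benjamini-Hochberg), and ranged up to an adjusted p of 0.0196 under the other settings that pool the spread. That term averages 2 ratios that are 3.02 apart and so describes neither. The limma hemin term was 0.74 (adjusted p = 0.156) and did not pass.

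**Figure D2:**
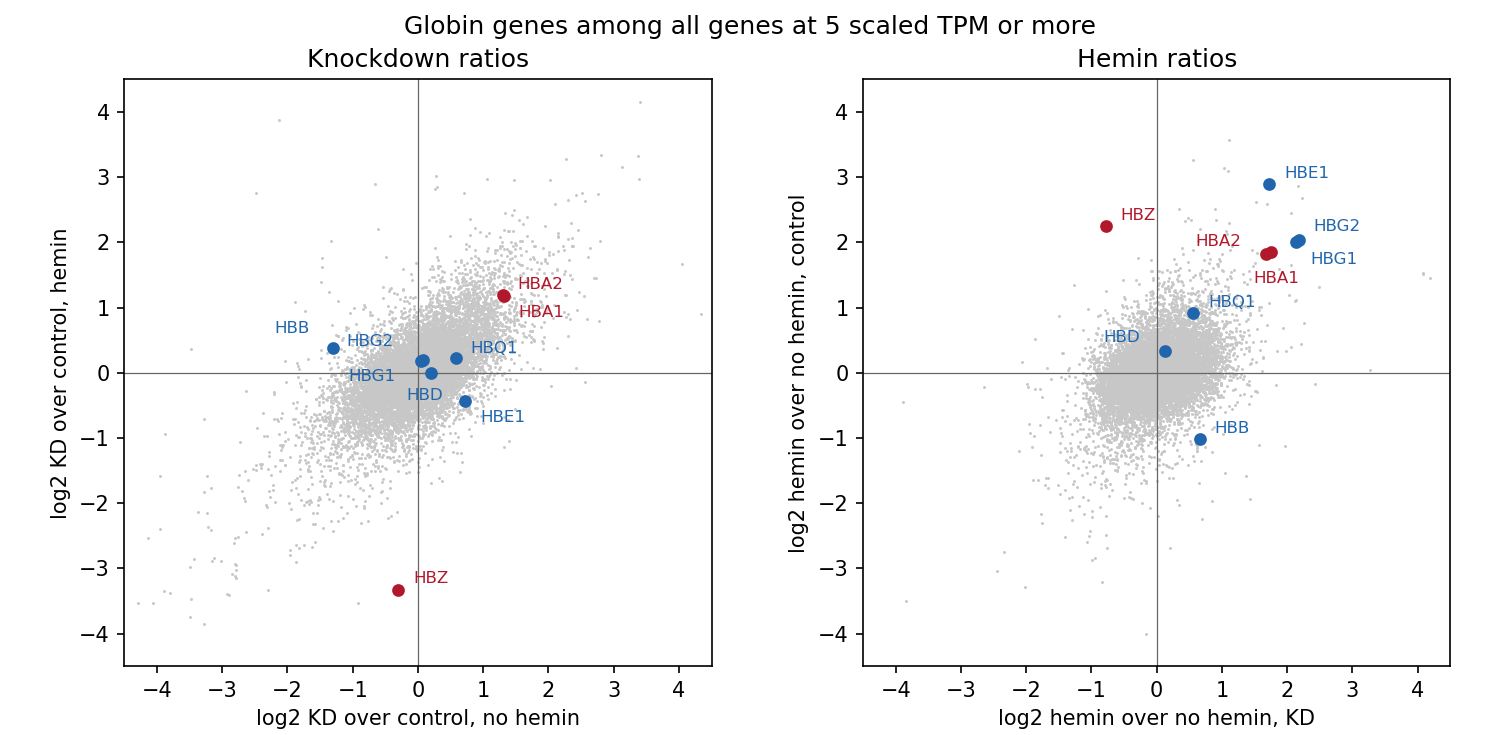
Each point is 1 of the 11149 genes that reach 5 scaled TPM in at least 1 library, with alpha-like genes in red and other globin genes in blue. The left panel plots log2 KD over control with hemin (vertical) against the same without hemin (horizontal), and the right panel log2 hemin over no hemin in control cells (vertical) against KD cells (horizontal). HBA1 and HBA2 lie high on both axes of both panels, while HBZ lies at -3.32 with hemin on the left and at 2.25 in control cells on the right. The axes end at 4.5, beyond which 3 genes on the left and 4 on the right are not shown.

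Zeta was a small part of alpha-like RNA in all 4 libraries, and smaller in KD cells. HBZ made up 0.0167% of the summed alpha-like level in KD cells with hemin, 0.1005% in KD cells without hemin, 0.442% in control cells with hemin and 0.312% in control cells without hemin. In reads the shares were 0.0164% (0.0113 to 0.0231), 0.0991% (0.0687 to 0.138), 0.436% (0.391 to 0.485) and 0.308% (0.234 to 0.398), with exact Clopper-Pearson intervals. The share was lower in KD cells than in control cells both with and without hemin, and neither pair of intervals overlaps. Without hemin the alpha level was higher in KD cells, while a difference in the HBZ level was not detectable at this depth.

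Haemoglobin needs alpha-like and beta-like chains in like amounts, so the 2 groups were set against each other within each library, where library scaling cancels. The beta-like group was HBB, HBD, HBE1, HBG1 and HBG2. Alpha-like RNA was 0.266 times beta-like RNA per length in KD cells with hemin, 0.359 in KD cells without hemin, 0.132 in control cells with hemin and 0.153 in control cells without hemin. The ratio was thus higher in KD cells by 2.01-fold with hemin and 2.35-fold without hemin, and was lower with hemin than without by 1.35-fold in KD cells and 1.16-fold in control cells. Over libraries with and without hemin together, the KD ratio averaged 0.313 and the control ratio 0.143. A two-sided exact permutation test of 2 libraries against 2, which ignores the hemin pairing, gave p = 0.333. That is the smallest p it can give, so the test cannot decide.

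**Figure D3:**
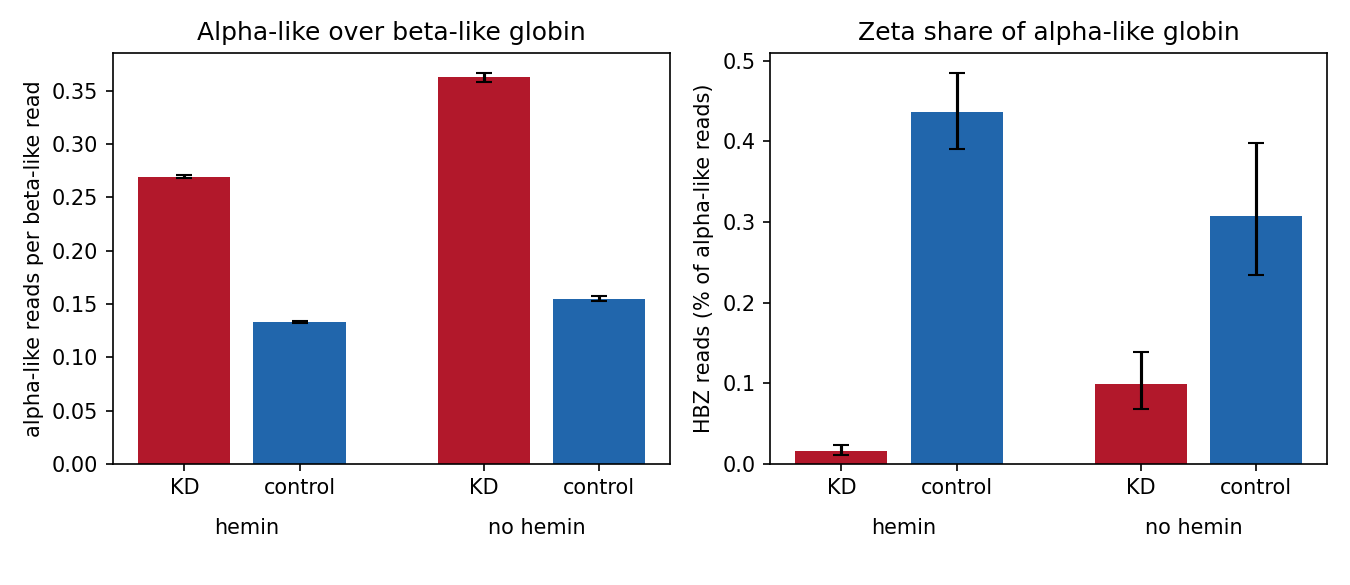
The left panel shows alpha-like reads per beta-like read and the right panel HBZ as a percentage of alpha-like reads, with 1 bar per library, KD in red and control in blue, and 95% counting intervals. Alpha-like reads per beta-like read are 0.363 in KD cells and 0.155 in control cells without hemin, and the HBZ share is 0.0164% in KD cells and 0.436% in control cells with hemin.

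Unlike the alpha genes, none of the beta-like genes was at least 2-fold higher in KD cells in either knockdown comparison. HBG1 and HBG2, the fetal gamma genes, had KD over control log2 ratios of 0.20 and 0.19 with hemin and 0.08 and 0.05 without hemin. Their hemin ratios were 2.13 and 2.18 in KD cells and 2.01 and 2.04 in control cells. These were above those of HBA1 and HBA2, at 1.68 and 1.75 in KD cells and 1.82 and 1.85 in control cells. In limma with Benjamini-Hochberg adjustment, neither passed for knockdown (adjusted p = 0.667 and 0.721), and both rose with hemin (adjusted p = 2.66e-25 and 1.31e-26). The difference between the alpha and gamma terms was not itself tested. HBBP1, a pseudogene of the beta cluster outside the beta-like group, had KD over control log2 ratios of 0.92 with hemin and 0.04 without hemin. Its hemin ratio was 0.82 in KD cells and -0.05 in control cells.

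HBE1, the embryonic epsilon gene, is the beta-like counterpart of HBZ in development. It had 1498 scaled TPM in KD cells with hemin, 452 in KD cells without hemin, 2028 in control cells with hemin and 273 in control cells without hemin. Its hemin log2 ratio was 1.73 in KD cells and 2.89 in control cells, a difference of -1.16. Like HBZ, it was highest in the hemin-treated control, but in KD cells it was still higher with hemin than without. Epsilon made up 2.49% of beta-like RNA in KD cells with hemin, 3.32% in KD cells without hemin, 3.79% in control cells with hemin and 2.11% in control cells without hemin, and gamma made up 96.1% to 97.4% across the libraries.

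The adult beta gene HBB was low throughout, at 33.7 scaled TPM in KD cells with hemin, 21.1 in KD cells without hemin, 25.7 in control cells with hemin and 52.7 in control cells without hemin. The minor adult delta gene HBD was lower still, at 11.9, 10.8, 11.9 and 9.31 scaled TPM in the same order. The adult partner genes thus stayed far below the alpha genes that were higher in KD cells. HBB had KD over control log2 ratios of 0.38 (0.17 to 0.61) with hemin and -1.30 (-1.59 to -1.06) without hemin.

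HBQ1, the theta globin gene at the end of the alpha cluster, whose product has no settled function, had 43.6 scaled TPM in KD cells with hemin, 29.3 in KD cells without hemin, 37.0 in control cells with hemin and 19.4 in control cells without hemin. Its order of libraries was that of HBA1, with the KD library on top, but its ratios were smaller, at 0.23 and 0.58 for KD over control with and without hemin. In limma with Benjamini-Hochberg adjustment it rose with hemin (0.74, adjusted p = 0.0396) and did not pass for knockdown (0.41, adjusted p = 0.225). HBM, which encodes the mu chain of this cluster, is not analysed here.

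The position of the genes in their cluster was read from the RefSeq gene order of assembly GRCh38.p14 on chromosome 16, used for order alone. Among the genes with a row in the table, HBZ comes next after NPRL3, and HBA2, HBA1 and HBQ1 follow it, with LUC7L beyond. Along that order, NPRL3, named here for its place, had KD over control log2 ratios of 0.47 with hemin and 0.36 without hemin. LUC7L, an RNA splicing factor gene, had -0.24 with hemin and 0.00 without hemin in the same comparison.

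Beyond the globins, 12 of the 15 flanking genes in the table reached the floor. In limma with Benjamini-Hochberg adjustment 3 of the 12 rose with knockdown and 0 fell, against 12.1% and 10.1% of all genes. They were POLR3K, an RNA polymerase III subunit, SNRNP25, a protein of the minor spliceosome, and NME4, a mitochondrial nucleoside diphosphate kinase. POLR3K had 68.1 scaled TPM in KD cells and 38.05 in control cells with hemin, and 138.7 in KD cells and 58.7 in control cells without hemin. SNRNP25 had 53.9 in KD cells and 26.5 in control cells with hemin, and 75.9 in KD cells and 39.8 in control cells without hemin. Both were higher in KD cells like HBA1 and HBA2, but both were lower with hemin than without, unlike them. The median knockdown ratio of the 12 flanking genes was 0.24 with hemin and 0.41 without hemin, beside 0.01 and 0.03 over all genes. With hemin 0 of 12 rose and 1, POLR3K, fell, against 3.01% and 2.96% of all genes. The median hemin ratios of the 12 were -0.47 in KD cells and -0.24 in control cells, beside 0.00 and -0.01 over all genes.

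**Figure D4:**
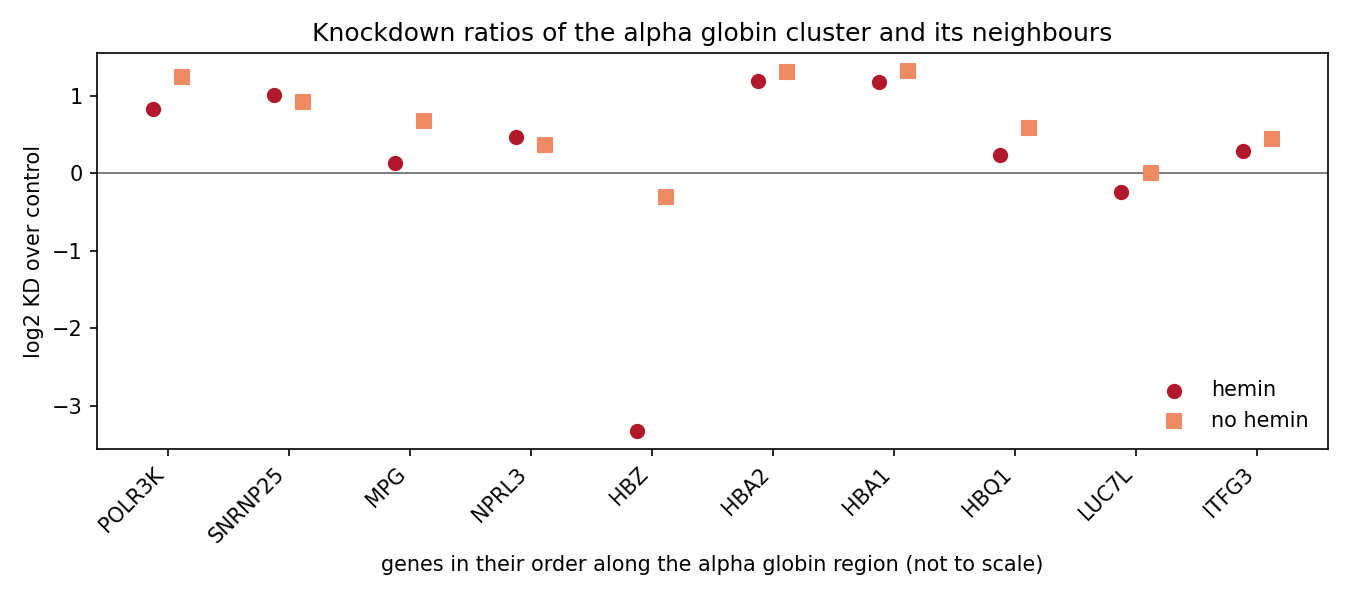
The log2 KD over control ratio of each measured gene from POLR3K to ITFG3 that reached the floor, with circles for hemin and squares for no hemin. Genes are in their order along the alpha globin region, not to scale. Other flanking genes that reached the floor, NME4 among them, are not shown. HBA2 and HBA1 lie at 1.19 and 1.18 with hemin, HBZ lies at -3.32 with hemin and -0.30 without, and NPRL3 and LUC7L lie close to 0, between -0.24 and 0.47.

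Genes known to act on globin were counted next. Of 37 chaperone and transcriptional regulator genes listed, 35 reached the floor. In limma with Benjamini-Hochberg adjustment 5 of them rose with knockdown and 3 fell, beside 12.1% and 10.1% of all genes. Both shares are near those of all genes, so the counts do not set this list apart. ZFPM1, the GATA1 cofactor FOG1, was highest by ratio among those that rose, with 44.9 scaled TPM in KD cells and 19.1 in control cells with hemin, and 80.8 in KD cells and 26.8 in control cells without hemin. The others that rose, named after their values were seen, were ZBTB7A and DNMT1, which help to silence fetal gamma globin, DAXX, a histone chaperone that works with ATRX, and EZH2, the Polycomb methyltransferase. GATA2, a factor of early progenitors, fell, with 340 scaled TPM in KD cells and 725 in control cells with hemin, and 472 in KD cells and 794 in control cells without hemin. BACH1, a repressor of globin genes that haem releases from DNA, and its small MAF partner MAFG also fell with knockdown. With hemin, these 2 of the 35 rose and 0 fell, beside 3.01% and 2.96% of all genes. BACH1 had 65.7 scaled TPM in KD cells and 113.9 in control cells with hemin, and 37.7 in KD cells and 75.5 in control cells without hemin. The median of the list was 0.09 with hemin and 0.00 without hemin for KD over control, beside 0.01 and 0.03 over all genes. AHSP, the chaperone of free alpha chains, is not analysed here.

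Of 14 genes for haem-regulated translation and binding of globin or other mRNAs, all of which reached the floor, 2 rose with knockdown in limma with Benjamini-Hochberg adjustment, 0 fell, and 0 passed for hemin in either direction. The share that rose is near the 12.1% of all genes. Both, HNRNPD and YBX1, encode proteins that bind mRNA and affect its stability. PCBP2, which binds the stabilising element of alpha globin mRNA, had KD over control log2 ratios of -0.71 with hemin and -0.19 without hemin and did not pass.

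Markers of the line's possible lineages were set beside the alpha genes. Their limma counts stand against 12.1% of all genes that rose and 10.1% that fell with knockdown, and 3.01% that rose and 2.96% that fell with hemin. Of 9 erythroid markers 8 reached the floor, with 0 that rose and 2 that fell with knockdown in limma, among them the transferrin receptor gene TFRC. Their summed level was 976 to 1170 scaled TPM in KD cells and 1254 to 1379 in control cells, so it was lower in KD cells, where HBA1 and HBA2 were higher. With hemin 4 of the 8 rose, among them EPB42, which encodes a protein of the red cell membrane skeleton, and TFRC fell. SLC4A1, the band 3 gene, stayed under the floor.

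Of 6 megakaryocyte markers 3 rose with knockdown in limma, ITGB3, PF4 and GP1BA, and 0 fell, while with hemin ITGA2B fell. The knockdown term averages ratios that differed with hemin, since the median of the 6 KD over control log2 ratios was 1.41 with hemin and -0.22 without hemin. PF4 had 68.8 scaled TPM in KD cells and 14.5 in control cells with hemin, and 37.9 in KD cells and 58.3 in control cells without hemin. Their summed level was 1610 to 1892 scaled TPM in KD cells and 1287 to 2612 in control cells. Of 5 measured myeloid markers 4 reached the floor, and CD68, ITGB2 and SPI1 fell with knockdown, while MPO is not analysed here. Their summed level was 167 to 180 scaled TPM in KD cells and 360 to 378 in control cells. With hemin CD68 rose and ITGB2 fell. No marker in the table was at 0 in any library. The part of these lineage markers in the alpha globin and HBZ differences was not tested.

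Lastly, the genes whose levels over the 4 libraries were most like those of the members were listed by the distance between log2 profiles, each centred on its mean, among 11148 other genes. For HBA2 the closest was HBA1, at 0.0535, which may share its reads. Then came JUN, an AP-1 transcription factor gene, at 0.362, LXN, a carboxypeptidase inhibitor gene, at 0.423, OR51E1, an olfactory receptor gene, at 0.557 and MAP9, a microtubule-associated protein gene, at 0.628. JUN had 42.5 scaled TPM in KD cells with hemin, 11.2 in KD cells without hemin, 12.8 in control cells with hemin and 3.93 in control cells without hemin. These are in the same order as the levels of HBA1 but far below them. No gene was as close to HBZ, for which DES, the desmin gene, was nearest at 0.837, followed by NOL3, RYR1, FADS3 and TDRD3 at 0.841 to 0.958. TDRD3, a Tudor domain protein gene, was the most abundant of these in the hemin-treated control, with 23.8 scaled TPM in KD cells and 129.7 in control cells with hemin, and 19.9 in KD cells and 50.0 in control cells without hemin. DES, NOL3 and RYR1 reached the floor through the hemin-treated control alone, and OR51E1 and MAP9 through the hemin-treated KD library alone. The floor itself therefore fixed part of the likeness of these genes. With 4 points per profile this is a description of these libraries and not a test.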

How the data were processed

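Per the file headers, the authors deposited an RPKM value for each RefSeq transcript and library. The submitters' processing notes name Bowtie and hg19, with no version or role, and the rest of the pipeline was not stated. The table has 24538 rows for 24408 transcripts, and no value is 0. Whole reads were recovered for 24533 of the 24533 rows that do not hold whole numbers, within 0.0002 reads plus a relative 4e-09. The other 5 rows hold whole numbers, TRIM28 among them. The value of 1 read was 0.926 (HBA2) and 0.978 (HBZ) times that of HBA1, so no large common factor was lost for these genes.

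Contrary to what RPKM implies, the deposited values still carried depth. Values were therefore divided by read totals times TMM factors (trims 0.3 and 0.05; factors 0.964 to 1.03). Each gene is its transcript with the highest mean. Genes entered a comparison at 5 scaled TPM in the higher library, and 2-fold was the limit for counts. With 1 library per group a ratio of 2 libraries has no p-value. The intervals at 95% are exact conditional binomial ones for ratios of libraries, and Clopper-Pearson for shares and for ratios within a library. Those of levels are exact Poisson ones, and that of the difference of log2 ratios is a normal approximation.

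The additive fit used limma 3.58.1 in R 4.3.3, with a trend on expression and an adjusted p threshold of 0.05. Python 3.11.15, numpy 2.4.6, pandas 2.3.3, scipy 1.17.1 and matplotlib 3.10.9 did the rest. The fit and the recovery of reads were tested on simulated data. The library kit (TruSeq RNA v2) does not mark strand, so antisense reads cannot be told apart. Members and lists were chosen with earlier results of these data known. All members and globin genes are named, and of each list the 3 genes with the largest mean knockdown ratio and the 3 with the largest mean hemin ratio may be; others are named as stated, and some list genes are not reported here. The alternatives were other scalings, floors, pseudocounts, transcripts and forms of the fit.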

Additional observations from a re-analysis of the deposited data

Results flagged for a closer look

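HBZ had a hemin over no hemin log2 ratio of -0.77 in KD cells and 2.25 in control cells, opposite directions under the same treatment. The level in KD cells rests on 33 reads with hemin and 34 without, both under the floor. HBB, the adult beta gene, also had opposite hemin log2 ratios, 0.66 in KD cells and -1.02 in control cells. Its KD over control log2 ratio was 0.38 with hemin and -1.30 without hemin. HBE1, the epsilon gene, had KD over control log2 ratios of -0.44 with hemin and 0.73 without hemin. With 1 library per group none of these differences was tested.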

How the results depend on the processing

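No paired analysis was possible because each group is 1 library, and for the same reason no replicate could be left out. No result that answers a comparison reversed where it was called: 100 values kept their call or moved by less than the counting interval, 25 moved by more and 5 lost their call. The summed alpha ratios stayed positive in each of the 7 alternatives. KD over control with and without hemin gave 1.29 and 1.42 with plain library totals, which shift all genes by 0.11 and 0.14, and 1.16 and 1.35 with equal medians. Hemin over no hemin with equal medians gave 1.62 in KD and 1.80 in control cells (difference -0.19). Scaling without globin genes gave 1.28 (KD over control, no hemin) and 1.81 (hemin, control). The deposited values as they stand carry depth and shift all genes by 0.22, -0.55, 0.96 and 0.16 in the 4 comparisons. They gave 1.40 and 0.73 for KD over control with and without hemin, and 2.67 in KD and 1.99 in control cells for hemin, with a difference of 0.67, so its sign turned. For HBZ they gave a hemin ratio of 0.063 in KD cells and a difference of -2.34. A pseudocount of 5 gave HBZ -2.24 (KD over control, hemin), 1.70 (hemin, control) and a difference of -2.07. Reads without division by length put alpha over beta at 0.2695 in KD and 0.133 in control cells with hemin, and HBA2 over HBA1 at 0.945, 0.903, 0.936 and 0.912. Without pooling of the spread the terms did not pass: knockdown HBA1 1.25 and HBA2 1.25 (adjusted p = 0.489 for both), HBZ -1.81 (adjusted p = 0.666), hemin HBA1 1.75 and HBA2 1.80 (adjusted p = 0.672), and 0 genes were called, with 1127 and 806 at unadjusted p under 0.05. Across the pooled settings limma's highest adjusted p was 0.00255 for HBA1, 0.00215 for HBA2 and 0.0196 for HBZ with knockdown. The hemin term called 336 and 330 genes (rose, fell), against 206 and 195 without a trend, 151 and 156 with no floor, 198 and 206 with a pseudocount of 5, and 210 and 191 with plain totals, where 752 in place of 1129 fell with knockdown. Genes 2-fold higher and lower numbered 654 and 447 (KD over control, hemin), 727 and 697 (no hemin), 246 and 184 (hemin, KD) and 279 and 279 (hemin, control). A floor of 20 gave 405 and 274, 484 and 451, 115 and 84, and 174 and 168. A pseudocount of 5 gave 339 and 253, 411 and 372, 77 and 64, and 138 and 146. A floor of 1 gave 283 lower in KD cells with hemin. Deposited values gave 1105 and 297, 145 and 2442, 5031 and 11, and 454 higher with hemin in control cells. The causes of the other shifts were not tested.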
